A study of Mus musculus with 12 samples.

Results

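Undifferentiated mouse embryonic stem cells of a female line labelled RlimKO were compared with those of the male wild-type line E14 over the autosomal genes, using 2 libraries of each line out of the 12 libraries of the series. Of 22065 autosomal genes in the count table, 9738 had enough counts to be tested. The series was designed around X inactivation, and the autosomes give the difference between 2 stem cell lines apart from the X chromosome. The third undifferentiated line, the female wild-type Pgk12.1, was also represented by 2 libraries, and its values stand beside the comparison. The same 3 lines were also sequenced after differentiation, which means 3 days as embryoid bodies without LIF followed by 6 days of culture in 7.5% oxygen. Undifferentiated cells of all lines were grown in stem cell medium with LIF, a cytokine that keeps mouse stem cells undifferentiated. The strain in the labels is C57BL/6 throughout, a label that was not checked here. They name no deleted part of Rlim, give 1 line per genotype and do not say whether the 2 libraries of a group came from separate cultures. Sex, line of origin and the RlimKO label therefore cannot be told apart, and each p-value rests on the spread between these libraries, which may be technical.

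Mouse embryonic stem cells in LIF are held in the naive state by a network of transcription factors around Oct4, Sox2 and Nanog, and pass through a formative state before they take up a lineage. Stem cell lines that derive from different embryos commonly differ in the pluripotency genes they favour, in imprinted genes, whose single active allele is set by the parent of origin, and in the chromosomes they have gained or lost in culture. Female lines with 2 active X chromosomes are also known for lower DNA methylation and altered signalling to ERK.

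Without Rn45s, a ribosomal RNA precursor that took 39.3% to 55.77% of the gene counts, and Lars2, the undifferentiated libraries held 836410 and 1170931 counts in the RlimKO-labelled line and 1355006 and 2309448 in E14. Values are given as CPM, counts per 1000000 of this total after scaling between libraries. Rlim, which encodes an X-linked ubiquitin ligase, stood at 337 and 308 CPM in the libraries labelled RlimKO, 418 and 536 CPM in E14 and 551 and 575 CPM in Pgk12.1. It was thus lower in the RlimKO-labelled libraries (log2 fold change -0.57 ± 0.13 SE, adjusted p = 0.000834), but present there, and the libraries are called RlimKO-labelled throughout. Without the second E14 library the call was lost (adjusted p = 0.0833). After differentiation Rlim was not lower, at 538 and 567 CPM in RlimKO-labelled libraries and 515 and 530 CPM in E14 (0.08 ± 0.14, adjusted p = 0.755). The differentiated Pgk12.1 libraries stood at 498 and 510 CPM. Counts over a whole gene cannot show which exons were transcribed. The Y-linked genes Uty and Ddx3y had no count in either RlimKO-labelled library, and Eif2s3y had 1, against 24.2 to 48 CPM for these 3 genes in E14. X-linked genes had a median log2 fold change of 0.94, and 254 of the 391 tested were higher (65.0%). Defining stem cell markers were present in both lines: Pou5f1, the gene of Oct4, stood at 784 and 714 CPM in the RlimKO-labelled libraries and 732 and 680 CPM in E14. Zfp42, a marker of the naive state, stood at 603 and 622 against 582 and 663 CPM. Of the 9 markers of undifferentiated stem cells, 4 (Dppa5a, Lin28a, Sall4 and Utf1) were lower and none higher by the edgeR test, with a median log2 fold change of -0.32. In the model of all 12 libraries 1 was lower. Their summed level was 3522 and 3596 CPM in RlimKO-labelled libraries and 4215 and 4352 CPM in E14. Markers of other cell types are given beside the results they move with. Of these, neuroectoderm markers had the highest sum, at 523 and 464 CPM in RlimKO-labelled libraries and 433 and 416 CPM in E14.

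Autosomal genes differed widely between the lines. At an adjusted p below 0.05, 2097 of the 9738 genes were called (21.5%), of which 1036 were higher in the RlimKO-labelled line (10.6%) and 1061 lower (10.9%), around a median log2 fold change of -0.02. Over all 10179 tested genes, X-linked genes included, 23.3% were called. A change of at least 1 on the log2 scale was found in 381 of the genes that were higher and 494 of those that were lower. With a model of all 12 libraries the call count was 1103, and with DESeq2 it was 1071. Without the second RlimKO-labelled library it was 1213, with 635 higher and 578 lower. Without the first E14 library 677 were lower, and without the second 669 were higher. These shares are the background for the gene groups that follow.

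The largest rises were spread over genes of several functions. Dnajc5g, a chaperone gene of the DnaJ family (chr5:31108293-31112526, GRCm38, as are all coordinates here), stood at 18.4 and 16.6 CPM in RlimKO-labelled libraries and had no count in E14, so it was at least 21.3-fold higher (adjusted p = 3.13e-07). Smyd1, a muscle histone methyltransferase (chr6:71213940-71262281), stood at 40.5 and 41.1 CPM against 0 and 2.16 CPM (log2 fold change 4.83 ± 0.51, adjusted p = 2.99e-10). Msln, the gene of the mesothelial surface protein mesothelin, stood at 59 and 49 against 1.46 and 2.16 CPM (4.75 ± 0.42, adjusted p = 2.24e-12). In each of these 3 genes both E14 libraries were near 0, and both Pgk12.1 libraries lay at the level of the RlimKO-labelled line, at 14.6 to 62.9 CPM. Of the 12 largest rises, 8 others were Dub1a, Spesp1, R3hdml, Hopx, Zscan4c, Hist1h4n, Apol6 and Pou4f2. Each stood at 7.37 to 50.4 CPM in RlimKO-labelled libraries and at most 2.2 CPM in E14. Dub1a, now named Usp17lb, and Zscan4c are also members of the 2-cell-like list below. Both had enough counts to be tested only through the RlimKO-labelled libraries.

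Among the largest falls, 5 genes had no count in either RlimKO-labelled library. Gbp1, an interferon-inducible GTPase gene also named Gbp2b (chr3:142594816-142619179), stood at 28.6 and 29.4 CPM in E14 and was at least 19-fold lower in the RlimKO-labelled line (adjusted p = 4.66e-08). Arhgef16, an exchange factor gene for small GTPases, stood at 19 and 32.4 CPM in E14 (at least 17.9-fold lower, adjusted p = 1.46e-07). Tdrd5, which acts in germline RNA bodies, stood at 16.8 and 16.4 CPM in E14 (at least 10.8-fold lower, adjusted p = 1.13e-05). The remaining such genes were Cpsf4l (16.8 and 14.7 CPM in E14) and Wnt7b, a WNT ligand gene (11 and 9.51 CPM in E14). For 3 of the largest falls, Sp4, Cpsf4l and Steap3, Pgk12.1 lay nearer to E14 than to the RlimKO-labelled line. Pgk12.1 stood at 15.2 and 8.76 CPM for Cpsf4l and 19.5 and 9.73 CPM for Steap3. Sp4, which binds GC-rich promoters (chr12:118231686-118301440), lies in the raised part of chromosome 12 described below. It had 1 count in the 2 RlimKO-labelled libraries against 104 in E14, a ratio of 55.3 (95% interval 9.71 to 2206, covering counting error only), and stood at 21.7 and 20.4 CPM in Pgk12.1. After differentiation Sp4 had no count in the RlimKO-labelled libraries and stood at 19.9 and 21.3 CPM in E14. The other 6 of the 12 largest falls were Steap3, Nlrp9b, Pde2a, Anxa3, Hmcn1 and Susd4, each at no more than 1.23 CPM in RlimKO-labelled libraries and 9.94 to 23.4 CPM in E14. The 24 genes with the largest rises and falls were chosen from these same 4 libraries, as called genes without overlap. Fits that leave out 1 of those libraries are therefore no independent support for them. Several, among them Gbp1, Tdrd5, Wnt7b, Spesp1 and R3hdml, had enough counts to be tested only through the line where they were higher. Pou4f2 and Hmcn1 lost the call without the second RlimKO-labelled library, and Wnt7b could not be tested without the first E14 library.

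**Figure D1:**
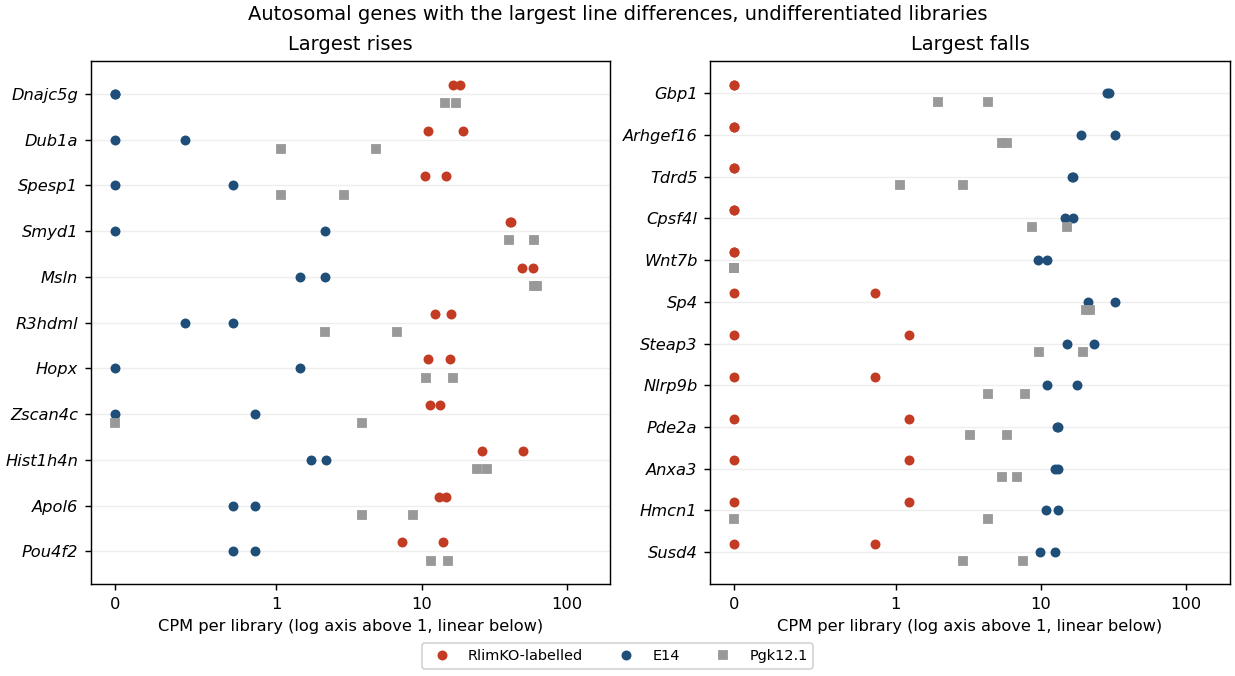
CPM of 11 of the 12 largest rises (left) and 12 largest falls (right) in each undifferentiated library, on an axis that is linear below 1 CPM and logarithmic above it, with 1 point per library (red, RlimKO-labelled; blue, E14; grey, Pgk12.1). The RlimKO-labelled and E14 points do not overlap for any gene shown, which the choice of genes required, and the Pgk12.1 points lie with one line, with the other or between them, depending on the gene.

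Part of the line difference followed chromosome position. Genes of a whole chromosome, or of long stretches of others, were shifted upward together by a small amount. Stretches were picked after values were seen, as runs of at least 4 bins of 10 Mb whose median lay at least 0.2 above the autosomal median, plus a shorter run on chromosome 6 whose edges were read from the values. Their medians are a description without a test. The stretches held 15% of the tested autosomal genes and 46.4% of the calls that were higher, but 3.77% of the calls that were lower. Outside them, 555 of 8274 genes were higher (6.71%) and 1021 lower (12.3%).

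Chromosome 8 was raised along its whole length, with a median log2 fold change of 0.38 over 577 genes, of which 27.4% were higher and 2.43% lower. Each RlimKO-labelled library showed it, at 0.41 and 0.40 relative to the E14 mean, and the Pgk12.1 libraries stood at 0.34 and 0.36. After differentiation the RlimKO-labelled libraries were at 0.39 and 0.40. Lamp1, a lysosomal membrane protein, had the smallest p of this chromosome: 687 and 772 CPM against 246 and 234 CPM (1.61 ± 0.12, adjusted p = 3.23e-14). The distal part of chromosome 12, from 60 Mb on, had the largest median of the long stretches, 0.62 over 248 genes, of which 46.4% were higher and 2.82% lower. Its RlimKO-labelled libraries stood at 0.62 and 0.64 and the Pgk12.1 libraries at 0.32 and 0.32. Itpk1, an inositol phosphate kinase, stood at 332 and 294 CPM there against 76.2 and 62.7 CPM in E14 (2.18 ± 0.16, adjusted p = 7.08e-15).

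The distal part of chromosome 10, from 80 Mb on, was raised in the RlimKO-labelled line and not in Pgk12.1. Its median was 0.47 over 243 genes, with the RlimKO-labelled libraries at 0.54 and 0.47 and the Pgk12.1 libraries at -0.07 and -0.10. The differentiated libraries gave 0.54 and 0.42 for the RlimKO-labelled line and -0.05 and -0.06 for Pgk12.1. Atp5b, a subunit of the mitochondrial ATP synthase, stood at 2785 and 2943 CPM against 1671 and 1588 CPM in E14 (0.81 ± 0.10, adjusted p = 3.49e-08). Its Pgk12.1 libraries, at 1755 and 1748 CPM, lay close above E14. Cdk4, the kinase partner of D-type cyclins, stood at 453 and 490 CPM against 281 and 295 CPM (0.71 ± 0.13, adjusted p = 4.27e-05). Irak3, a brake on Toll-like receptor signalling, stood at 68.8 and 77 against 15.4 and 13.4 CPM (2.36 ± 0.28, adjusted p = 6.58e-09), and its Pgk12.1 libraries, at 30.4 and 38.9 CPM, lay between those of the other lines.

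On chromosome 5 the part from 110 Mb on had a median of 0.40 over 353 genes. The RlimKO-labelled libraries stood at 0.43 and 0.36, and Pgk12.1 at 0.02 and 0.13 before and 0.29 and 0.24 after differentiation. Pcolce, which enhances procollagen processing, stood at 192 and 164 CPM there against 42.5 and 39.8 CPM (2.11 ± 0.20, adjusted p = 1.3e-11). Chromosome 11 went the other way as a whole, with a median of -0.22 over 832 genes, 17.9% lower and 3.49% higher. Outside the stretches, chromosomes 5, 6, 10 and 12 had medians of -0.06, -0.02, -0.02 and 0.08. RNA counts do not measure DNA copies, and the part of copy number in these shifts was not tested.

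**Figure D2:**
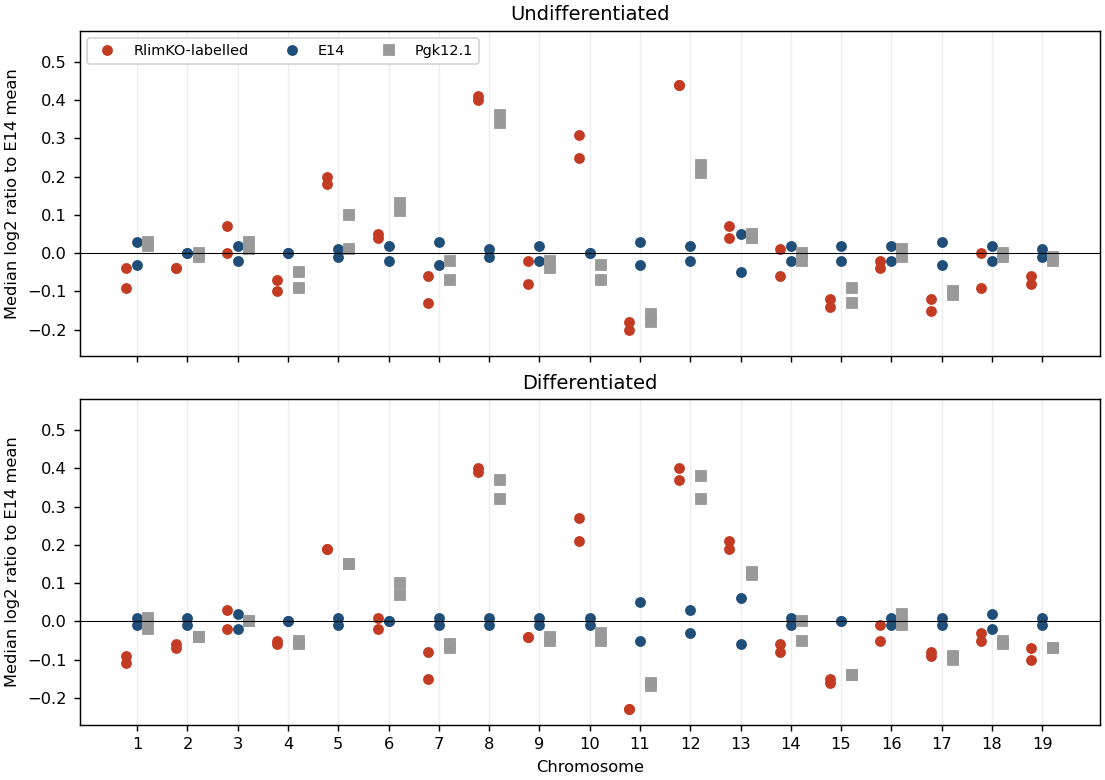
Median log2 ratio of each library to the mean of the E14 libraries of the same state over the tested genes of each autosome, with 1 point per library (red, RlimKO-labelled; blue, E14; grey, Pgk12.1) before (top) and after (bottom) differentiation. Chromosomes 8 and 12 stand high in both female lines in both states, chromosome 10 stands high in the RlimKO-labelled libraries and not in Pgk12.1, and chromosome 11 stands low in both female lines.

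A shorter stretch of chromosome 6, chr6:70844484-83506969, from Eif2ak3 to Dguok, had a median of 1.03. All of its 43 tested genes had a positive log2 fold change, 28 were higher and none was lower by the edgeR test. The RlimKO-labelled libraries stood at 0.95 and 1.07 and the Pgk12.1 libraries at 1.11 and 1.15. After differentiation, in libraries that did not choose the stretch, 42 of the 43 genes were positive and the RlimKO-labelled libraries stood at 0.97 and 0.97. Genes of this stretch cover unrelated functions. Tmsb10, an actin-binding thymosin, stood at 199 and 213 CPM against 41 and 51 CPM (2.14 ± 0.18, adjusted p = 5.21e-13). Kcmf1, a ubiquitin ligase gene, stood at 138 and 103 against 39.6 and 38 CPM (1.62 ± 0.21, adjusted p = 6.62e-08). Tet3, a DNA demethylase gene, stood at 36.9 and 31.5 against 15.4 and 13 CPM (1.27 ± 0.33, adjusted p = 0.00276), a call lost without the second E14 library (adjusted p = 0.0511). Smyd1, named above, lies here too.

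**Figure D3:**
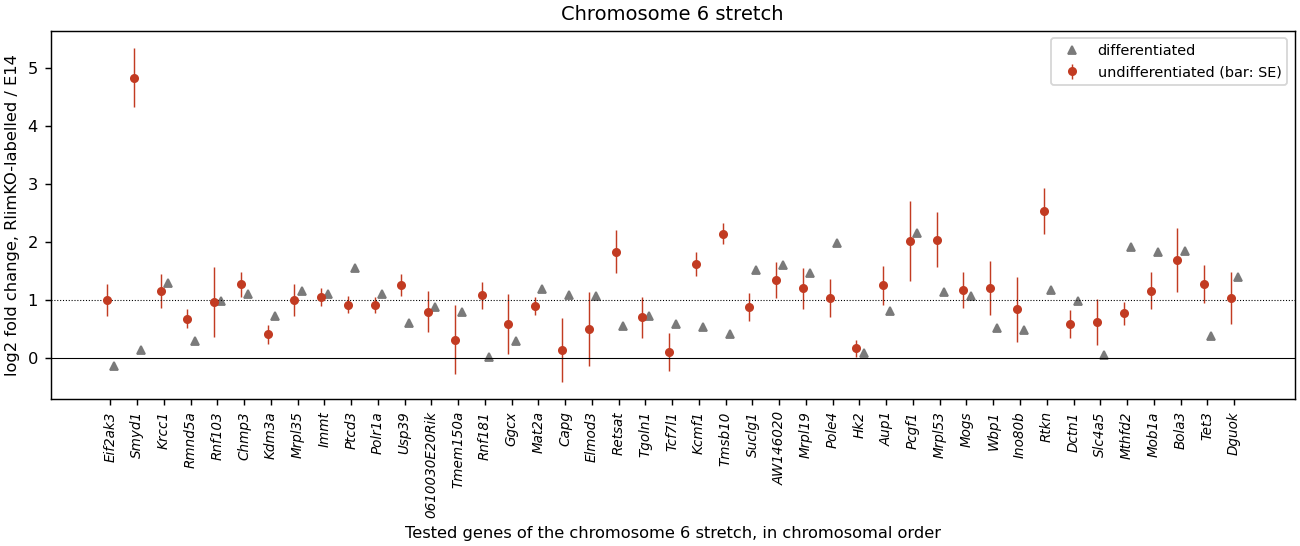
Log2 fold change between RlimKO-labelled and E14 libraries for the 43 tested genes of the chromosome 6 stretch in chromosomal order, before differentiation (red points, bars are SE) and after it (grey triangles). The undifferentiated values lie around 1 with Smyd1 far above at 4.83, and 42 of the differentiated values are positive.

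Cholesterol synthesis genes that passed the test were all higher. The pathway builds cholesterol from acetyl-CoA through mevalonate, squalene and lanosterol, and its genes are known to be switched on together by the SREBP2 transcription factor when cells lack sterols. Of 22 tested members 13 were higher and none lower by the edgeR test, with a median log2 fold change of 0.56 against -0.02 over all autosomal genes. Outside the raised stretches 10 of 19 were higher. Among the early steps, Hmgcs1, the HMG-CoA synthase, stood at 383 and 418 CPM against 297 and 318 CPM (0.38 ± 0.13, adjusted p = 0.0265). Mvd, which makes isopentenyl pyrophosphate, stood at 101 and 81.4 CPM against 36.6 and 25.1 CPM (1.59 ± 0.24, adjusted p = 1.27e-06), and it lies on the raised chromosome 8.

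Genes of the later steps, from lanosterol on, were raised as well. Cyp51, the lanosterol demethylase, stood at 208 and 210 CPM against 90.1 and 94.3 CPM (1.18 ± 0.16, adjusted p = 1.71e-07). Sc4mol, the sterol methyl oxidase now named Msmo1, stood at 210 and 248 against 65.2 and 72.6 CPM (1.73 ± 0.17, adjusted p = 3.7e-11), also on chromosome 8. Both groups of libraries were well apart in each. Sqle, Sc5d, Dhcr7, Mvk and Insig1 were also called, between 0.48 and 1.31. Of these, Mvk kept its call in all 4 fits without 1 library, Sqle in 3, Sc5d in 2, and Dhcr7 and Insig1 in 1 each. The 9 members not called ran from -0.33 for Hsd17b7 to 0.94 for Tm7sf2, and the regulator gene Srebf2 stood at 281 and 234 CPM against 330 and 298 CPM (-0.29 ± 0.14, adjusted p = 0.132).

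The count of raised members was 8 in the model of all 12 libraries, 8 with DESeq2 and 7 without the first RlimKO-labelled library. Hmgcs1 lost the call without any 1 of the 4 libraries compared. After differentiation 2 members were higher and 1 lower of 22, against shares of 5.16% and 7.13% of all 11862 autosomal genes tested there. Cyp51 stood at 215 and 197 against 205 and 180 CPM, and its line difference differed between the states (adjusted p = 0.0157). This state difference held in 2 of 8 fits that left out 1 library. In this test of the difference between states 2.18% of autosomal genes were called.

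The promoters of these genes are shown because members of the list moved together. Sequences are from RefSeq (GRCm38.p6), 250 bases before to 50 after the gene start, read 5′ to 3′ on the strand of the gene, and 14 of the 22 genes had an entry. Capitals mark the CCAAT box (CCAAT or its reverse complement ATTGG, either strand), which binds NF-Y, and the sterol regulatory element in the form TCACNCCAC (either strand), with no overlap between the motifs here. Hmgcs1 (chr13:119690101-119690400, plus strand), was the 1 gene of the 14 with the sterol element in this form, and Mvd (chr8:122443373-122443672, minus strand) has 2 CCAAT boxes close to the start.
Hmgcs1: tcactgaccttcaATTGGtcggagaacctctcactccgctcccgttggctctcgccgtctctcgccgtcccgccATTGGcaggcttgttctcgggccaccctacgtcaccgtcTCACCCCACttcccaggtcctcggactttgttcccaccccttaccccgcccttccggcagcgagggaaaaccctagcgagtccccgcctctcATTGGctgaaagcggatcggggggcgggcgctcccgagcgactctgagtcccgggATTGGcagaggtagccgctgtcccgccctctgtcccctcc
Mvd: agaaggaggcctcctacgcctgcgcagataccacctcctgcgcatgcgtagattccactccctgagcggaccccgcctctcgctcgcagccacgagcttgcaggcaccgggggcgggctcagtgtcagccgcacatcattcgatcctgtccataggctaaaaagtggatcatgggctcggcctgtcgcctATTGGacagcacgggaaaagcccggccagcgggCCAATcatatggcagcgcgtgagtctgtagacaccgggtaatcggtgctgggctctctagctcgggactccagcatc
A CCAAT box was present in all 14 promoters, against 41.1% of 27025 genes with an entry. The sterol element in this form was present in 1.44% of all promoters. A match is a description of the letters and not evidence of binding.

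Smooth muscle and SRF target genes were mostly lower. SRF with its actin-sensing cofactors drives genes of the contractile and adhesive cytoskeleton, and YAP drives some of the same secreted proteins. Of 18 tested members 13 were lower and 2 higher, with a median of -1.17, and 13 of the 17 outside the raised stretches were lower. Tagln and Thbs1 passed the count filter only through E14, so they could be tested only where they were lower. Another 5 members had too few counts to be tested. The count and the median are therefore weighted toward members that are high in E14. Cnn2, a calponin that binds actin (chr10:79988350-79988649 for its promoter), stood at 11.1 and 14.9 CPM against 65.9 and 73.9 CPM in E14 (-2.40 ± 0.31, adjusted p = 4.99e-08). Tpm1, the main tropomyosin, stood at 79.9 and 107 against 219 and 191 CPM (-1.11 ± 0.17, adjusted p = 2.9e-06). Tagln, which stabilises actin gels, stood at 2.46 and 3.5 against 27.1 and 27.2 CPM (-3.11 ± 0.58, adjusted p = 5.49e-05). For these 3 genes the groups were far apart, and Pgk12.1 lay near the RlimKO-labelled line at 11.9 and 19.5, 83.5 and 84.7, and 0 and 5.84 CPM.

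Secreted targets fell as well. Thbs1, the matrix protein thrombospondin 1, stood at 0 and 8.75 CPM against 54.9 and 42.4 CPM (-3.23 ± 0.46, adjusted p = 4.68e-07). Ctgf and Cyr61, matricellular proteins known as YAP targets, fell by 2.49 and 2.06 on the log2 scale. Ctgf lost its call without the second RlimKO-labelled library (adjusted p = 0.0727), and the call of Cyr61 held only without that library. Srf itself stood at 43 and 41.1 against 74.7 and 67 CPM (-0.75 ± 0.23, adjusted p = 0.015), a call that held in 1 of the 4 fits without 1 library. Not every actin-binding gene was lower. Tagln2, the transgelin of non-muscle cells, stood at 284 and 314 CPM against 171 and 151 CPM (0.90 ± 0.14, adjusted p = 2.93e-06), and Myh9, the non-muscle myosin heavy chain, at 482 and 461 against 300 and 253 CPM (0.77 ± 0.13, adjusted p = 7.55e-06). Actb, the beta actin gene, stood at 3612 and 3506 against 3245 and 2793 CPM (0.24 ± 0.10, adjusted p = 0.0835).

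The CArG box, the SRF binding motif, was found in 5 of 17 promoters of this list with an entry (Cnn2, Myl9, Vcl, Srf and Actg1) and in 1.81% of all promoters. The promoter of Cnn2 (plus strand, GRCm38.p6, RefSeq) is shown as the member with the smallest p among them, with the CArG box in capitals.
Cnn2: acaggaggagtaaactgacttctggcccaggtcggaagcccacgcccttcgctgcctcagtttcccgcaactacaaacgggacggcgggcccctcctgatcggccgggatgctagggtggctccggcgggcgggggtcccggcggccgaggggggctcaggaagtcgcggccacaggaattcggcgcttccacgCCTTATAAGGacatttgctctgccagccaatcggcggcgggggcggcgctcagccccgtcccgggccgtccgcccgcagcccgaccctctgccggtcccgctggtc
After differentiation, in independent libraries, 12 members of the same list were lower and 1 higher (background 7.13% and 5.16%). Thbs1 stood there at 362 and 388 CPM against 1285 and 1306 CPM (-1.79 ± 0.22, adjusted p = 0.000237), and Acta2, smooth muscle actin, at 1208 and 1305 against 3575 and 2872 CPM (-1.36 ± 0.25, adjusted p = 0.00386). Tagln2 had the opposite sign, at 144 and 133 against 224 and 288 CPM, and the difference between states was called (adjusted p = 0.00191). Replicates agreed least in differentiated E14, where the chi-square between both libraries was 24.8 times its degrees of freedom, and 1.85 to 2.32 times in the other 5 groups. Acta2 kept its differentiated call in 2 of the 4 fits without 1 library, and Thbs1 in all 4.

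**Figure D4:**
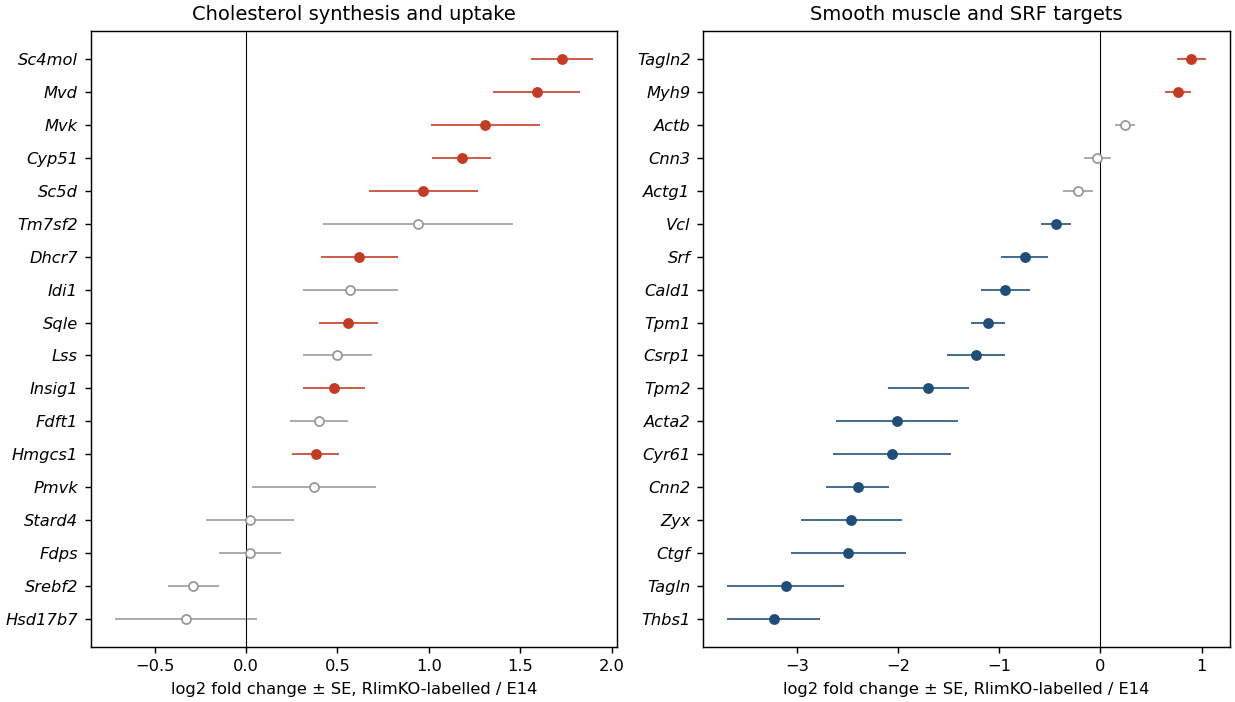
Log2 fold change ± SE between undifferentiated RlimKO-labelled and E14 libraries for 18 of the 22 tested members of the cholesterol list (left) and the 18 of the smooth muscle and SRF list (right), filled where the adjusted p was below 0.05. On the left 9 members shown are called above 0 and none below it; on the right 13 are called below 0, and Tagln2 and Myh9 are called above it.

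Collagens and basement membrane proteins moved with that list. These genes encode the sheet of laminin, type IV collagen and nidogen that stem cells lay down around themselves. Of 19 tested members 9 were lower and 1 higher, with a median of -0.78. Lamb1, the laminin beta 1 chain (chr12:31265146-31329644), stood at 79.9 and 78.8 CPM against 322 and 310 CPM (-1.99 ± 0.17, adjusted p = 3.36e-13). Fn1, fibronectin, stood at 962 and 908 against 1890 and 1463 CPM (-0.84 ± 0.12, adjusted p = 2.51e-07). Nid2, Agrn, Lama5, Hspg2, Nid1, Col4a1 and Col4a2 were lower by 0.58 to 1.37, the last pair although they lie on the raised chromosome 8. Lamc1, the laminin gamma 1 chain, was the member that was higher, at 741 and 745 against 587 and 559 CPM (0.38 ± 0.12, adjusted p = 0.0133). The calls of Lamc1, Col4a1 and Col4a2 held in 1, 0 and 2 of the 4 fits without 1 library, and those of Hspg2 and Nid1 in 3 each.

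Fibroblast markers differed between the 2 RlimKO-labelled libraries, and several low genes of both lists followed them. The summed level of 15 fibroblast and feeder markers was 160 and 326 CPM in the RlimKO-labelled libraries, 241 and 212 CPM in E14 and 161 and 193 CPM in Pgk12.1, with Prrx1 at 0 in all 6 libraries. Of the 6 tested markers 1, Vim, was called higher, but not without the second RlimKO-labelled or the first E14 library. Without the second RlimKO-labelled library 4 fibroblast markers were lower. Col3a1 stood at 0 and 54.3 CPM in the RlimKO-labelled libraries and 36.6 and 20.8 CPM in E14, and Acta2 at 0 and 8.75 against 27.1 and 15.1 CPM. Acta2 lost its call without the first RlimKO-labelled or the first E14 library. Without the second RlimKO-labelled library 12 collagen and basement membrane members and 8 smooth muscle members were lower, and without the first 7 and 11. The part of fibroblast RNA in these lists was not tested. In bulk RNA, fewer cells of a type and less RNA per cell cannot be told apart.

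Naive pluripotency genes were called in both directions, and formative genes were mostly lower. Of 26 tested naive factors 3 were higher and 7 lower, with a median of -0.07. Of the 3 that were higher, Tcl1 and Esrrb lie in the raised part of chromosome 12. Nanog stood at 362 and 390 CPM in RlimKO-labelled libraries and 302 and 299 CPM in E14 (0.33 ± 0.13, adjusted p = 0.0559), and Sox2 at 260 and 257 against 300 and 343 CPM (-0.32 ± 0.14, adjusted p = 0.0861). Tcl1, a coactivator of the AKT kinase on distal chromosome 12, was far higher at 340 and 318 against 63 and 66.2 CPM (2.34 ± 0.16, adjusted p = 4.53e-16). Dppa3, which protects maternal methylation marks in the zygote, stood at 2.46 and 6.13 against 33 and 29.8 CPM (-2.75 ± 0.46, adjusted p = 1.07e-05). The other 6 members that fell did so by less: Dppa5a, Lin28a, Sall4, Nr5a2, Utf1 and Il6st, the receptor subunit that carries the LIF signal, had log2 fold changes of -1.19 to -0.66. Dppa5a, Lin28a, Sall4 and Utf1 were already counted above among the lower stem cell markers. Lin28a, Sall4 and Utf1 are not specific to the naive state. Il6st stood at 140 and 128 CPM against 229 and 195 CPM (adjusted p = 0.00154), and Utf1 lost its call without the first E14 library (adjusted p = 0.0827). Gbx2 and Esrrb, the other 2 members that were higher, lost the call without the first RlimKO-labelled library and without the second E14 library.

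Formative and primed genes mark the exit from the naive state. Of 17 tested members 11 were lower and 3 higher, with a median of -0.77 and no member in a raised stretch. Lef1 and Krt8 passed the count filter only through E14, so they could be tested only where they were lower. The count and the median are therefore weighted toward members that are high in E14. Lef1, the transcription factor of the WNT pathway that rises on exit, stood at 9.83 and 7 CPM against 48.3 and 61 CPM (-2.73 ± 0.37, adjusted p = 1.29e-07), with Pgk12.1 at 4.34 and 7.79 CPM. Dnmt3b, a de novo DNA methyltransferase, stood at 241 and 212 against 407 and 425 CPM (-0.89 ± 0.14, adjusted p = 2e-06). Krt18 stood at 6.14 and 12.3 against 35.2 and 37.6 CPM (-1.91 ± 0.39, adjusted p = 0.000222). Otx2, Pou3f1, Zic2, Zic5, Sall2, Grhl2, Krt8 and Dnmt3a were the other members that were lower. Of these 8, Sall2 kept its call in all 4 fits without 1 library, Krt8 in 3, Pou3f1, Zic2, Zic5 and Grhl2 in 2 each, Otx2 in 1 and Dnmt3a in none. The 3 that were higher were Etv4, an ETS factor downstream of ERK (115 and 109 against 41.8 and 39.8 CPM, 1.46 ± 0.21, adjusted p = 7.16e-07), Foxd3, a forkhead factor that embryonic stem cells need (29.5 and 25.4 against 4.39 and 6.92 CPM), and Tcf15, which lost its call without the second RlimKO-labelled library. The count of members that were lower was 5 in the model of all 12 libraries, 6 with DESeq2 and 5 without the second RlimKO-labelled library. It was 7 without the first E14 library and 6 without the second.

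Trophoblast markers were lower beside these genes, and the lists share Krt8 and Krt18. The summed level of 15 trophoblast markers was 44.2 and 44.6 CPM in RlimKO-labelled libraries, 130 and 131 CPM in E14 and 65.1 and 80.8 CPM in Pgk12.1. Most of this sum came from Tfap2c, Krt8 and Krt18, the same 3 markers that were called lower, and 11 markers were not tested. Krt8 passed the count filter only through E14. Of 4 tested markers 3 were lower and none higher by the edgeR test; Tfap2c stood at 16 and 14 against 46.9 and 44.1 CPM (-1.60 ± 0.32, adjusted p = 0.000125). The placental hormone genes Prl3d1 and Prl2c2 and the marker Tpbpa were at 0 in all 6 libraries. The part of trophoblast RNA in the lower Krt8 and Krt18 was not tested. Of 9 tested neuroectoderm markers 3 were higher, none lower and 6 not called by the edgeR test, with a median of 0.22. Sox1, on the raised chromosome 8, stood at 20.9 and 12.3 against 2.2 and 1.73 CPM. It needed the RlimKO-labelled libraries to pass the count filter. Ncam1 stood at 77.4 and 69.2 against 28.6 and 25.1 CPM. Pax6, the third, stood at 14.7 and 20.1 against 5.13 and 8.22 CPM and was not called by DESeq2 (adjusted p = 0.163).

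Signalling genes split within each pathway. Among Nodal and BMP genes 3 of 16 tested members were higher and 3 lower. Lefty2, a secreted inhibitor of Nodal and one of its direct targets, stood at 505 and 486 CPM against 114 and 124 CPM (2.05 ± 0.14, adjusted p = 6.12e-16), and Lefty1 at 220 and 224 against 112 and 123 CPM (0.91 ± 0.16, adjusted p = 3e-05). Nodal itself stood at 50.4 and 57.8 against 65.9 and 77.8 CPM (-0.41 ± 0.22, adjusted p = 0.183). Skil and Smad7, feedback inhibitors inside the cell, were lower by 0.60 and 0.78. Smad7 lost its call without the first RlimKO-labelled or the second E14 library (highest adjusted p = 0.0799) and was not called by DESeq2 (adjusted p = 0.0693). In the WNT list 5 of 19 tested members were lower (Wnt7b, Lef1, Tcf7, Fzd7 and Lrp6) and 2 higher. Another 21 members had too few counts to be tested. Wnt7b and Lef1 passed the count filter only through E14, so they could be tested only where they were lower. The count of lower members is therefore weighted toward genes that are high in E14. Both that were higher are extracellular inhibitors of WNT: Sfrp1, on chromosome 8, stood at 241 and 209 against 90.8 and 81.7 CPM (1.38 ± 0.17, adjusted p = 9.06e-09), and Notum at 63.9 and 49.9 against 17.6 and 20.3 CPM (1.55 ± 0.28, adjusted p = 3e-05). The call of Tcf7 held in 2 of the 4 fits without 1 library and that of Lrp6 in none. Without the first E14 library 2 members of this list were lower.

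ERK feedback and response genes had 3 of 16 members higher and 4 lower. Spry4, a feedback inhibitor of ERK signalling, stood at 112 and 95.4 CPM against 52 and 49.3 CPM (1.03 ± 0.20, adjusted p = 0.000143), and Etv4 and Etv1 were the others that were higher, Etv1 not without the second E14 library (adjusted p = 0.0511). Il17rd, another feedback inhibitor, went the opposite way at 68.8 and 71.8 against 145 and 167 CPM (-1.15 ± 0.19, adjusted p = 7.55e-06). Egr1, an immediate-early target, stood at 4.91 and 6.13 against 30.8 and 22.5 CPM (-2.20 ± 0.47, adjusted p = 0.000326). Spred2 and the receptor gene Fgfr2 were lower as well. The line difference of Spry4 changed with the state (adjusted p = 0.0086): after differentiation it stood at 25.6 and 19.4 CPM against 39.4 and 36 CPM. That difference held in 4 of 8 fits that left out 1 library.

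DNA methylation genes were called in both directions, with 4 higher, 4 lower and 9 not called of 17 tested. Of the 4 that were higher, 2 lie in raised stretches, Tet3 and Mbd3. Among the writers and their cofactors, Dnmt3l, the cofactor that stimulates de novo methylation (chr10:78042287-78063622), stood at 30.7 and 28 CPM against 130 and 129 CPM in E14 and 130 and 150 CPM in Pgk12.1 (-2.14 ± 0.22, adjusted p = 1.87e-10). Dnmt3b is given above. Uhrf1, which guides maintenance methylation, stood at 348 and 352 against 573 and 463 CPM (-0.56 ± 0.13, adjusted p = 0.00129), and Dnmt3a was lower by 0.42, a call lost without any 1 library. Dnmt1, the maintenance enzyme, stood at 622 and 556 against 658 and 674 CPM (-0.18 ± 0.12, adjusted p = 0.275). Among the erasers, Tet1 stood at 1842 and 1830 against 1082 and 1090 CPM (0.76 ± 0.11, adjusted p = 2.78e-07), and Tet3 lies in the chromosome 6 stretch. Zfp57, which holds methylation at imprinted loci, and Mbd3 were also higher, the latter in 2 of the 4 fits without 1 library. Without the second E14 library 2 were higher, and without the first 2 were lower, Uhrf1 not among them (adjusted p = 0.0558). After differentiation Dnmt3l and Dnmt3b were again lower (-2.98 ± 0.61 and -1.20 ± 0.21), in 2 and 3 of the 4 fits without 1 library, and Tet1 was again higher (0.89 ± 0.14, adjusted p = 0.00131).

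Imprinted genes were called often and in both directions. Maternally expressed genes had 5 members higher and 5 lower of 13 tested, and paternally expressed genes 6 higher and 1 lower of 18. Another 7 maternally and 11 paternally expressed members had too few counts to be tested. Phlda2, among the maternally expressed genes that were lower, passed the count filter only through E14, so it could be tested only where it was lower. Without the first RlimKO-labelled library 3 maternally expressed genes were lower, as without either E14 library, and without the second RlimKO-labelled library 2 paternally expressed genes were lower. The noncoding RNAs of the Dlk1-Meg3 locus rose together: Rian (chr12:109603945-109661716) stood at 908 and 932 CPM against 201 and 240 CPM (2.05 ± 0.13, adjusted p = 1.14e-17), and Meg3 (chr12:109540996-109571729) at 564 and 624 against 181 and 158 CPM (1.82 ± 0.14, adjusted p = 9.06e-15). Pgk12.1 lay between the lines, at 382 and 388 CPM for Rian. Both exceed the median of the raised chromosome 12 stretch in which they lie, 0.62, and Mirg rose with them, though not without the second E14 library (adjusted p = 0.0766). Rtl1, the paternally expressed gene of this locus, stood at 36.9 and 36.8 against 9.52 and 13.8 CPM (1.61 ± 0.36, adjusted p = 0.000684), but an antisense transcript overlaps it and the library type does not mark strand.

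Other imprinted loci held genes that fell and genes that rose. Grb10, an adaptor that restrains insulin signalling (chr11:11930499-12037428), stood at 154 and 131 CPM against 376 and 364 CPM (-1.38 ± 0.15, adjusted p = 4.34e-10). Phlda2 and Cdkn1c, maternally expressed growth inhibitors of the Kcnq1 domain, stood at 0 and 4.38 against 30.8 and 28.1 CPM (-3.48 ± 0.58, adjusted p = 8.21e-06) and at 1.23 and 6.13 against 14.6 and 24.2 CPM (-2.28 ± 0.57, adjusted p = 0.00201). Cdkn1c lost the call without the second E14 library. Kcnq1ot1, the paternal noncoding RNA that silences that domain, was higher at 1093 and 1200 against 435 and 514 CPM (1.27 ± 0.12, adjusted p = 1.15e-11). It lies antisense to Kcnq1, so its reads are subject to the same limit on strand. Mest, a paternally expressed hydrolase, stood at 289 and 312 against 91.6 and 87.3 CPM (1.75 ± 0.16, adjusted p = 4.83e-12). H19 and Igf2 differed between the 2 RlimKO-labelled libraries, as fibroblast markers did: H19 stood at 4.91 and 26.3 CPM and Igf2 at 1.23 and 35 CPM, against 64.5 and 22.9 and 30.8 and 31.6 CPM in E14. H19 was called lower (-1.28 ± 0.42, adjusted p = 0.0215) but not without the first RlimKO-labelled or the first E14 library, and Igf2 was not called (adjusted p = 0.306).

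After differentiation several imprinted genes were much further apart. Grb10 stood at 5.91 and 8.32 CPM in RlimKO-labelled libraries against 2027 and 1268 CPM in E14 (-7.77 ± 0.29, adjusted p = 3.29e-10), and the difference between states was called (adjusted p = 1.01e-07). Igf2r, the clearance receptor of IGF2, stood at 226 and 201 against 286 and 259 CPM before differentiation (adjusted p = 0.0683) and 72 and 67.5 against 4064 and 3122 CPM after it (difference between states, adjusted p = 1.18e-08). H19 stood at 10456 and 8387 CPM against 251 and 314 CPM after differentiation (5.06 ± 0.41, adjusted p = 6.77e-06), the opposite sign to the undifferentiated cells (difference between states, adjusted p = 0.0002). The state differences of Grb10, Igf2r and H19 held in all 8 fits that left out 1 library. Of the maternally expressed genes 5 of 13 differed between states, against 2.18% of all autosomal genes.

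Genes of the glycolysis list were lower as a group, with 8 of 18 tested members lower and 1 higher and a median of -0.43. Ldhb, the lactate dehydrogenase B subunit, stood at 88.5 and 114 CPM against 369 and 305 CPM (-1.71 ± 0.16, adjusted p = 1.93e-11), with Pgk12.1 at 91.1 and 80.8 CPM. Pkm2, the pyruvate kinase gene now named Pkm, stood at 2641 and 2495 against 3579 and 3437 CPM (-0.45 ± 0.10, adjusted p = 0.000733), and Gpi1 at 375 and 318 against 623 and 499 CPM (-0.70 ± 0.14, adjusted p = 0.000113). Pfkl, Pfkm, Hk1, Pdk1 and Slc16a3 were the others that were lower. Of these, Pdk1, a kinase of pyruvate dehydrogenase, and Slc16a3, a lactate transporter, are in the list but are not glycolytic enzymes. Pfkl kept its call in 3 of the 4 fits without 1 library, Hk1 in 2, Slc16a3 in 1, and Pfkm and Pdk1 in none. Gapdh was higher (205 and 155 against 119 and 99 CPM), a call lost without the first RlimKO-labelled library, but it has many processed copies that can share its reads, so its change is uncertain. The count of members that were lower was 3 in the model of all 12 libraries, 4 with DESeq2 and 3 without the second RlimKO-labelled library. It was 4 without the first E14 library and 5 without the second.

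Most of the stress genes that were higher lay in the raised stretches. NRF2 and metallothionein targets, which detoxify oxidants and metals, had 7 of 15 tested members higher and none lower by the edgeR test, with a median of 0.55. Of these, 5 lie on the raised chromosome 8: Nqo1 stood at 61.4 and 62.2 CPM against 11.7 and 16.4 CPM (2.08 ± 0.29, adjusted p = 1.77e-07), and Mt1, Mt2, Hmox1 and Gsr were higher by 0.76 to 1.16. Outside the stretches Srxn1, sulfiredoxin (67.6 and 61.3 against 34.4 and 29 CPM, 1.03 ± 0.24, adjusted p = 0.00107), and Gclm were higher. Gclm lost its call without any 1 library, and Gsr without the second RlimKO-labelled library. Heat shock and immediate-early genes had 5 of 10 members higher, all in raised stretches, and 1 lower. Hsp90aa1, the inducible HSP90 chaperone on chromosome 12, stood at 8442 and 8908 against 4149 and 4944 CPM (0.93 ± 0.10, adjusted p = 7.11e-10), and Hspb1, a small heat shock protein on chromosome 5, at 301 and 292 against 93 and 119 CPM (1.46 ± 0.15, adjusted p = 1.87e-10). Amino acid and integrated stress response genes had 6 of 21 members higher, of which 5 lay in stretches. Atf4, the transcription factor of that response, was the sixth, on chromosome 15: it stood at 360 and 325 against 198 and 237 CPM (0.64 ± 0.14, adjusted p = 0.000453). Sesn2 and Pck2 were the 2 members that were lower, and neither call held without the second RlimKO-labelled or the first E14 library.

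**Figure D5:**
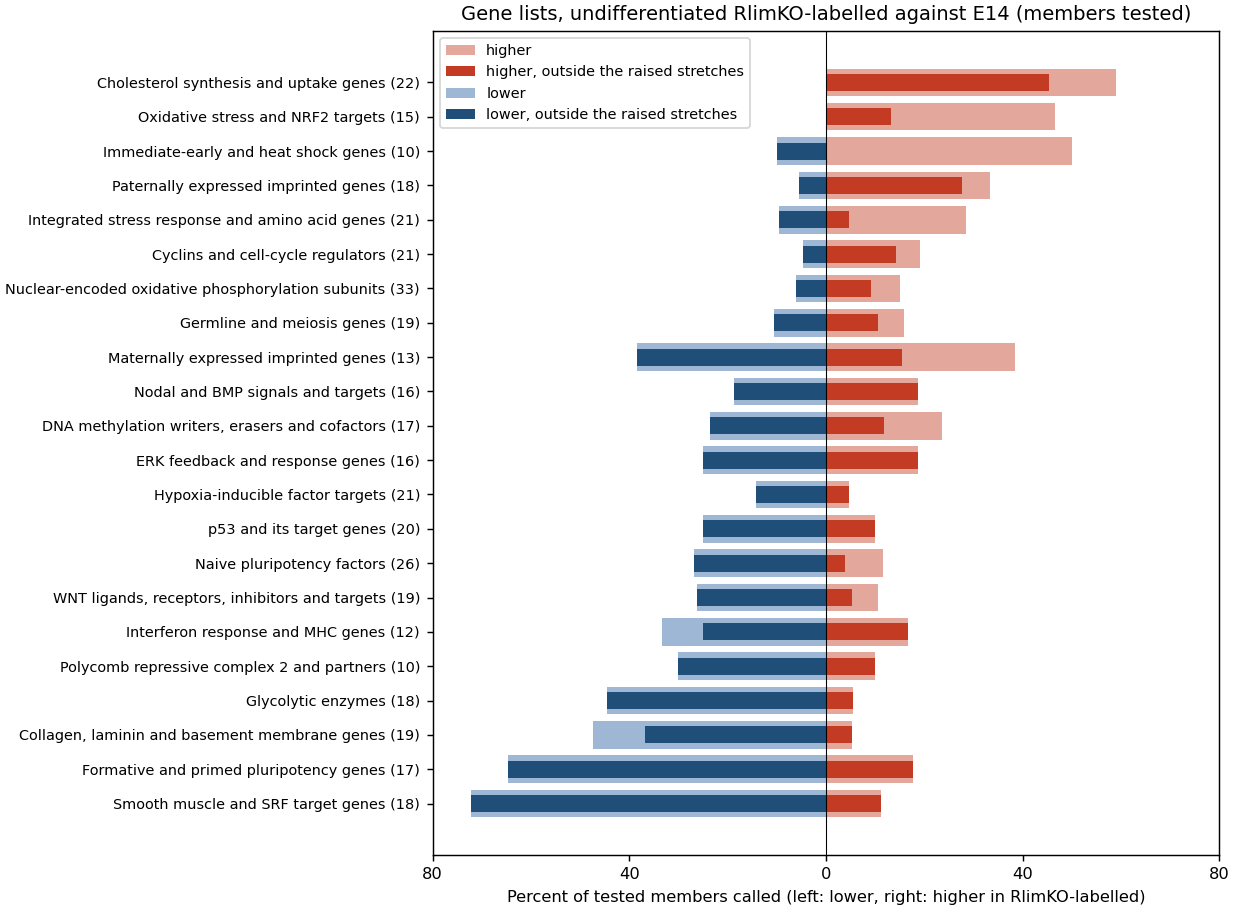
Percent of the tested members of 22 gene lists called lower (left) or higher (right) in undifferentiated RlimKO-labelled against E14 libraries, with the number tested in brackets; dark bars leave out members in the raised chromosome stretches. Cholesterol genes keep most of their raised members outside the stretches, heat shock and most NRF2 genes do not, and smooth muscle, formative, collagen and glycolytic genes extend to the left.

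The genes of the 2-cell-like state that were called rose from low levels, and germline genes were called in both directions. Of 24 genes of the 2-cell-like state, which a small share of stem cells enters at any time, 20 were in the table, 5 were tested and 4 were higher. These 4 passed the count filter only through the RlimKO-labelled libraries, so they could be tested only where they were higher. Their count is therefore not a result about the group. Summed over all 20 genes without a filter, the level was 375 and 383 CPM in RlimKO-labelled libraries. The same sum was 209 and 255 CPM in E14 and 283 and 311 CPM in Pgk12.1. The list also holds Eif1a, a translation factor gene that is not specific to this state. The tested member that was not called had a log2 fold change of 0.26. Each of the 4 called genes stood at no more than 22.8 CPM in RlimKO-labelled libraries and 3.46 CPM in E14. Most of the sum therefore came from other members, and it does not measure the state. Zscan4c, which acts on telomeres, stood at 13.5 and 11.4 CPM against 0 and 0.865 CPM, a ratio of 22.6 (95% interval 5.6 to 197). Usp17l5 stood at 16 and 14.9 against 1.46 and 1.3 CPM (3.41 ± 0.70, adjusted p = 0.000214). Pgk12.1 stood at 0 and 3.89 and at 1.08 and 0.973 CPM for these genes. Both belong to families of near-identical copies, so reads may be split or shared among them. Among 19 tested germline genes 3 were higher and 2 lower, close to the share of all genes called. Of the 3 that were higher, Rpl10l lies in the raised part of chromosome 12. Syce1, of the synaptonemal complex, stood at 36.9 and 32.4 against 9.52 and 9.08 CPM (1.88 ± 0.36, adjusted p = 7.63e-05), and Rpl10l and Hormad1 were the others that were higher, Hormad1 in 1 of the 4 fits without 1 library. Smc1b, the meiotic cohesin subunit, stood at 28.3 and 41.1 against 108 and 147 CPM (-1.86 ± 0.23, adjusted p = 1.6e-08) and at 185 and 133 CPM in Pgk12.1, and Dazl was lower by 2.21 but lost the call without the second RlimKO-labelled library.

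The differentiated libraries of the same lines gave an independent set of samples. There 1458 of 11862 autosomal genes were called (12.3%), a count that ran from 245 without the second RlimKO-labelled library to 4178 without the first E14 library. Of the 2097 genes called before differentiation 467 were called after it too (22.3% of the undifferentiated calls, and 37.7% of the 1239 differentiated calls among genes tested in both), 422 with the same sign and 45 with the opposite sign. Rian, Meg3, Kcnq1ot1, Tet1, Hsp90aa1, Atp5b and Cdk4 were among those higher in both, and Grb10, Dnmt3l, Lamb1, Cnn2, Thbs1, Lef1 and Sp4 among those lower in both. Of these, Cdk4, Dnmt3l, Lamb1 and Lef1 each kept the differentiated call in 2 of 4 fits without 1 library, and Cnn2 in 3. The line difference of 162 of the 2097 genes differed between states.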

How the data were processed

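The deposited table holds whole-number counts of reads per gene symbol. The authors used HTSeq (0.6.1p1), TopHat2 (version 2.0.12) and mm10, with bcl2fastq before them (version 2.16.0.10) and edgeR after (version 3.10.0), per the submitters' processing notes; the annotation and strand setting are not given in the sources used here. Libraries were made by template switching, repeated PCR and Nextera tagmentation, per the labels' protocols, without strand marks or molecular identifiers, so intervals cover counting error only. Reads in the 5 summary lines of the counter were left out: 46.46% to 50.18% of the reads of an undifferentiated library fell in no gene and 0.3756% to 0.5743% were ambiguous. Rn45s and Lars2 were removed. Symbols were placed with the RefSeq table of GRCm38.p6, which left 229 of the 23336 unplaced.

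Line differences were tested with edgeR 4.0.16 in R 4.3.3 (quasi-likelihood F test, TMM scaling, filterByExpr), on the 6 undifferentiated libraries in 3 groups of 2, with Benjamini-Hochberg adjustment over all tested genes and a threshold of 0.05. The difference after differentiation and the difference between states came from a model of all 12 libraries. Every adjusted p comes from these fits unless DESeq2 (1.42.0) is named, and ± is the standard error. Folds against a group without counts use a floor of 3 counts over that group, and ratios with 1 to 3 counts carry exact 95% intervals. The test was tested on simulated counts with known changes.

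Some genes that these lists and counts include are not reported here by name. The comparison and the 30 gene lists were chosen with earlier results of these data known. Genes were named by a rule: the 12 largest rises and falls among called genes with at least 10 CPM in mean in one line and no overlap of libraries, predicted genes left out, up to 4 members of each list by smallest p, Rlim, Y-linked genes, and the smallest p of each stretch. Genes named beyond it, and the stretches (bins of 10 Mb with at least 5 genes), were chosen after their values were seen. Alternatives were other scalings, filters, DESeq2, the replicate block, each library left out, and members outside the stretches, the last chosen after seeing the data.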

Additional observations from a re-analysis of the deposited data

Results flagged for a closer look

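For 32 named genes the difference between the RlimKO-labelled line and E14 differed between the undifferentiated and the differentiated state, by the test of that difference in edgeR's quasi-likelihood model of all 12 libraries. Each value is the undifferentiated minus the differentiated log2 fold change ± SE. The clearest were imprinted: Grb10 at 6.39 ± 0.35 (adjusted p = 1.01e-07), Igf2r at 5.34 ± 0.24 (adjusted p = 1.18e-08) and H19 at -6.34 ± 0.65 (adjusted p = 0.0002). With Tagln2 at 1.79 ± 0.24 (adjusted p = 0.00191) and Itpk1 at 2.05 ± 0.26 (adjusted p = 0.00151), these held in all 8 fits that left out 1 library. Itpk1 stood after differentiation at 41.4 and 33.3 CPM in RlimKO-labelled libraries and 31.4 and 35.2 CPM in E14. The chromosome 12 stretch in which it lies had a median of 0.56 after differentiation.

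Of the 12 largest rises and 12 largest falls, 6 genes had such a difference. Msln had a state difference of 5.54 ± 0.93 (adjusted p = 0.0088), with 0.986 and 0.462 CPM against 0.886 and 1.24 CPM after differentiation, and the call held in 7 of 8 such fits. Smyd1 had 4.75 ± 0.89 (adjusted p = 0.0135), at 1.97 and 4.16 against 2.66 and 3.31 CPM. Hist1h4n had 4.08 ± 0.94 (adjusted p = 0.0359) and Hopx 9.09 ± 2.17 (adjusted p = 0.0414), but the latter rests on 1 differentiated E14 library at 17.4 CPM and held in 1 of 8 fits. Among the falls, Cpsf4l had -7.94 ± 1.74 (adjusted p = 0.0305) and Steap3 -4.86 ± 1.18 (adjusted p = 0.045), both between 1.33 and 4.55 CPM in every differentiated library of the 2 lines.

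In signalling, sterol and cytoskeletal genes the state differences were 1.80 for Spry4, 1.97 for Etv4, 1.08 for Cyp51, 2.99 for Etv1, -1.57 for Cnn2 and -2.25 for Tagln. Stress, lysosomal and hypoxia genes gave 2.43 for Nqo1, 1.27 for Hspb1, 1.24 for Lamp1, 2.31 for Bhlhe40, -1.10 for Bnip3, -1.21 for Pdk1 and 2.26 for Pmaip1. Imprinted Phlda2 gave -3.64, and Polycomb cofactors gave -1.06 for Aebp2 and 1.81 for E130012A19Rik. Marker genes of other cell types gave 0.97 for Vim, 2.31 for Ncam1 and -2.20 for Tfap2c. The LIF receptor subunit gene Il6st gave -0.96, and the laminin gene Lamc1 gave 0.87. After differentiation Lamc1, Bhlhe40, Spry4, Ncam1 and E130012A19Rik were lower and Pdk1 higher in the RlimKO-labelled line, the opposite of the undifferentiated cells. None of the 21 in this paragraph held in all 8 fits without 1 library.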

How the results depend on the processing

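The undifferentiated comparison called 2097 autosomal genes, 1036 higher and 1061 lower. The model of all 12 libraries called 1103 (560 and 543), DESeq2 1071 (545 and 526), and a fold threshold of 1 on the log2 scale left 875 (381 and 494). Outside the raised stretches 555 were higher. Leaving out each library in turn gave 1213 to 1658 calls, 635 to 829 higher and 578 to 829 lower. After differentiation, 1458 genes were called, 530 with the 6 differentiated libraries alone and 245 to 4178 with each library left out. The difference between states gave 259 calls, 671 with no filter on low counts and 42 to 1893 with each library left out. The counts of these results moved by less than 1.5 times under the other scalings and filters. No named gene reversed its direction in any alternative run. Over all lists and alternatives, counts of list members moved by more than 1.5 times in 90 cases downward and 18 upward and stayed within it in 732. Named genes lost the threshold in 64 cases, passed it in 6 and kept their side in 1585. The median of all autosomal genes ranged from -0.084 without a filter to -0.006 with scaling on autosomal genes. The cause of these changes was not tested. With 836410 counts in the shallowest library, 1 count there is worth more than 1 CPM, and low genes rest on few counts.

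Replicate numbers gave no pairing: the deviations of same-numbered libraries correlated at 0.093, -0.002 and -0.036 between groups. A fit with the replicate block called 2193 genes (1076 higher and 1117 lower), 1471 after differentiation and 247 for the difference between states.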

Other observations

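Interferon response genes moved in both directions, with 2 of 12 tested members higher and 4 lower. Ifitm3, an antiviral membrane protein of the early germline, stood at 108 and 67.4 CPM in RlimKO-labelled libraries and 31.5 and 16.4 CPM in E14 (1.92 ± 0.28, adjusted p = 8.62e-07). Its neighbour Ifitm1 went the other way, at 73.7 and 79.7 against 221 and 152 CPM (-1.26 ± 0.19, adjusted p = 1.38e-06). Bst2, which tethers budding viruses, was lower although it lies on the raised chromosome 8, at 8.6 and 2.63 against 27.8 and 34.6 CPM (-2.59 ± 0.48, adjusted p = 4.29e-05). Gbp2 and Irf1 were lower, calls that each failed in at least 1 fit without 1 library. Of 20 tested p53 genes 2 were higher and 5 lower, and without the second RlimKO-labelled library 2 were lower. Pmaip1, the gene of the cell death protein NOXA, stood at 55.3 and 56 against 16.1 and 20.3 CPM (1.58 ± 0.27, adjusted p = 1.12e-05), and Zmat3, an RNA-binding p53 target, at 147 and 151 against 238 and 229 CPM (-0.64 ± 0.15, adjusted p = 0.00115).

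Oxidative phosphorylation and hypoxia genes were called no more often than all autosomal genes (21.5%). Nuclear-encoded oxidative phosphorylation subunits had 5 higher and 2 lower of 33 tested. Cox5b, a cytochrome oxidase subunit, stood at 119 and 113 against 63.7 and 55.8 CPM (0.97 ± 0.20, adjusted p = 0.000194). Hypoxia targets had 1 higher and 3 lower of 21, with P4ha1, a collagen prolyl hydroxylase, at 54.1 and 53.4 against 107 and 112 CPM (-1.03 ± 0.21, adjusted p = 0.000199). Cyclins and cell-cycle regulators had 4 higher and 1 lower of 21, and 2 higher without the second RlimKO-labelled or the first E14 library. Polycomb repressive complex 2 genes had 1 higher and 3 lower of 10, among them Ezh1, its alternative catalytic subunit, at 51.6 and 46.4 against 93.8 and 104 CPM (-1.02 ± 0.22, adjusted p = 0.000393).

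Markers of endoderm, mesoderm and blood were low. Summed CPM was 197 and 225 in RlimKO-labelled libraries and 261 and 237 in E14 for 18 endoderm markers, and 30.7 and 34.1 against 36.6 and 34.2 for 18 mesoderm markers. For 17 blood and endothelial markers it was 95.8 and 101 against 179 and 174, mostly from Pecam1, which stem cells also express, at 67.6 and 61.3 against 142 and 135 CPM.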
